A study of Mus musculus with 6 samples.

Results

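Lytic granule biogenesis and exocytosis genes were examined for chromatin accessibility in natural killer (NK) cells that lack Rroid, a long noncoding RNA locus, and in wildtype NK cells. The set held 36 genes, named from what they are known to do but chosen with earlier results of these data known. Its shares beside those of all peaks are therefore descriptive. Their peaks were the rows of the consensus peak table whose nearest gene was a member and whose distance to its transcription start site was at most 100 kb. This gave 136 peaks of 51775 in all, near 35 of the 36 members, and Vamp7 was not analysed here. Distance alone assigned a peak to a gene, which does not show that the peak acts on it.

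ATAC-seq, which uses a transposase to cut and tag open DNA, gave the accessibility values. Both groups were NK cells of C57BL6 mice, sorted from the spleen as cells without CD3 and CD5 that carried NK1.1 and NKp46. The first group was wildtype and the second was Rroid deficient, with 3 libraries each and 50000 cells used per genotype. Age, sex and the deleted stretch are not given in the labels, which also do not say that libraries came from separate animals. All p-values therefore reflect the spread among these 6 samples only, and that spread may be technical. Library numbers follow the column names, wildtype 1, 2 and 3 and Rroid-deficient 4, 5 and 6.

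NK cells kill by releasing lytic granules, which are secretory lysosomes loaded with perforin and granzymes. Adaptors and mannose 6-phosphate receptors sort enzymes to the maturing granule, actin and myosin bring it to the contact with the target cell, and Rab27a, its Slp effectors and Unc13d (Munc13-4) tether and prime it. SNARE proteins, among them Stx11 with its partner Stxbp2, then join granule and plasma membrane. Inherited loss of Unc13d, Stx11, Stxbp2, Rab27a, Lyst or Ap3b1 impairs cytotoxic granule release in people.

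The sequence just before the transcription start is shown for members whose start-site peak (within 1 kb of the start) fell and that had an entry, which were Stx11, Vamp8, Ctsd and Myh9, and for Stxbp2, Nkg7 and Lyst, whose start-site peak was not called. The sequences are RefSeq's for GRCm38.p6, 250 bases ending at the base before the start, 5′ to 3′ on the strand of the gene. They were matched by gene symbol, and 29 of the 36 members had an entry. The peaks are in mm9, so the windows were not laid over them. Capitals mark matches, on either strand, to CAGNTG (an E-box, the kind of site that E proteins bind), AGGTGNGA (T-box), TGTGGT (RUNX) and TCACGTGA (the core of the CLEAR element of lysosomal genes). A match is a description of the letters and not a binding site. On the minus strand the windows lay at chr10:12964260-12964509 (Stx11), chr6:72390668-72390917 (Vamp8), chr7:142387828-142388077 (Ctsd) and chr15:77842176-77842425 (Myh9). On the plus strand they lay at chr8:3630859-3631108 (Stxbp2), chr7:43436888-43437137 (Nkg7) and chr13:13590159-13590408 (Lyst).
Stx11: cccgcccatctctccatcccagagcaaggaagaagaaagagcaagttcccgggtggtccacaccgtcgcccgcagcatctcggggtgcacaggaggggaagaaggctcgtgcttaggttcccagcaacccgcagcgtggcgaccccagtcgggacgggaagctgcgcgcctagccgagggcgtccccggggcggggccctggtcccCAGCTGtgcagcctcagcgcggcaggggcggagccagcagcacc
Vamp8: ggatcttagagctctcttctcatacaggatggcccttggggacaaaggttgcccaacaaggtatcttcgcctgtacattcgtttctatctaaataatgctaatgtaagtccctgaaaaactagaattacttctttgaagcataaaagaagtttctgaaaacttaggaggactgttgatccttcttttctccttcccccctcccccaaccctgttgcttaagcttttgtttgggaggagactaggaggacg
Ctsd: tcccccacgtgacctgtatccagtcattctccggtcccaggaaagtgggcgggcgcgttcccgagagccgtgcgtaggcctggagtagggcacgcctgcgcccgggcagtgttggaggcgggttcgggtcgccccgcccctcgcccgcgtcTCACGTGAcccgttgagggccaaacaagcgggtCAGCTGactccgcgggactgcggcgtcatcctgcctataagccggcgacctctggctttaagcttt
Myh9: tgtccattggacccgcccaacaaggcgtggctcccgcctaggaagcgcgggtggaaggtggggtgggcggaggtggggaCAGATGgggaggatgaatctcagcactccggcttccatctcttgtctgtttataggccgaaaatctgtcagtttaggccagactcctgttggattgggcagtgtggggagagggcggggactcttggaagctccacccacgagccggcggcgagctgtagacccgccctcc
Stxbp2: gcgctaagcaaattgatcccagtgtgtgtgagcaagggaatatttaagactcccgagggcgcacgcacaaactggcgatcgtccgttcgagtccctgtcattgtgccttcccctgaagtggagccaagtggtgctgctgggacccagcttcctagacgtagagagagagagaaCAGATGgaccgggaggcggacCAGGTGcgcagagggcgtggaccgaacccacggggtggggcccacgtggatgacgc
Nkg7: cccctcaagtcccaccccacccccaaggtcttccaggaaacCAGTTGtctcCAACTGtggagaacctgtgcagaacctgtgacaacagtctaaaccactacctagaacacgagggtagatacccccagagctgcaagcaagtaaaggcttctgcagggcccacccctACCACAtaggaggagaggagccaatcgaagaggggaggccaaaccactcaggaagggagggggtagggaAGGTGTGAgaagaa
Lyst: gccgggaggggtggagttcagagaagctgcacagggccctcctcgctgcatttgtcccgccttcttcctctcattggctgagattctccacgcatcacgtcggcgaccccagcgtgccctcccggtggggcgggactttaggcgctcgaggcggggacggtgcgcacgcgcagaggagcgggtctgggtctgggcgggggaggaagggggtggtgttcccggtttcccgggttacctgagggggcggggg

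Stx11 held 1 E-box, CAGCTG, whose first base lay 44 bases upstream of the start. Ctsd held the same letters 66 bases upstream and the CLEAR core 99 bases upstream, and Myh9 held CAGATG at 171. Among the genes without a called start-site peak, Stxbp2 held 2 E-boxes (77 and 56 bases upstream). Nkg7 held 2 E-boxes (209 and 199), a RUNX match at 83, read as ACCACA, and a T-box match, AGGTGTGA, at 14. Vamp8, which fell, and Lyst, which was not called, held none of the 4 motifs. The E-box is common, present in 44.8% of all 32851 windows of this length and in 18 of the 36 windows of member genes. T-box letters stood in 4.66% of all windows and in 2 of the 36, those of Nkg7 and Rab27a. RUNX letters stood in 14.0% of all windows and in 7 of the 36. The CLEAR core stood in 0.785% of all windows and in 3 of the 36, at Ctsd, Arpc5 and Igf2r, of which Ctsd alone had a called start-site peak.

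The 6 libraries held 27572006 to 47939665 reads in peaks, and Rroid-deficient libraries 4 and 6 were the shallowest. The median peak held 151 to 224 reads, for which counting error alone is 6.68 to 8.14%. Of 8 NK cell marker genes, 7 had a start-site peak (Il2rb had none). Their summed value was 20969 to 24367 normalized reads in wildtype and 16610 to 20197 in Rroid-deficient libraries. Of the 7, 4 fell (Gzmb, Prf1, Tbx21 and Klrb1c), with overlap between the groups at Tbx21 and Klrb1c. Eomes, Ncr1 and Klrk1 were not called, and Klrk1 was higher on average (2048 in wildtype against 2378). Of 9 T cell markers, 3 had a start-site peak and Cd3d, Cd3e, Cd4, Cd6, Cd8a and Cd8b1 had none. Cd3g and Cd5 rose among these 3. At Cd5 the groups overlapped, with 118.4, 43.7 and 31.3 in wildtype and 118.0, 131 and 141 in Rroid-deficient libraries. Cd28, lower without overlap, did not pass the test (2315 ± 106 in wildtype against 2105 ± 43.9, SD, n = 3). The sum of the 3 was 2367 to 2485 in wildtype and 2493 to 2649 in Rroid-deficient libraries. Of 5 dendritic cell markers 2 had a start-site peak, of which Flt3 rose and Zbtb46 did not pass the test (2220 ± 349 against 2322 ± 149, SD, n = 3; sum 2098 to 2836 against 2752 to 3133), and none of the 2 of 6 B cell or 3 of 8 myeloid marker peaks was called. The part of cell makeup in the results below was not tested. In bulk libraries fewer cells with an open site and less opening per cell cannot be told apart.

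Across the set, falling peaks outnumbered rising ones. Of the 136 member peaks, 27 fell and 15 rose in Rroid-deficient cells (limma, Benjamini-Hochberg over all peaks, adjusted p under 0.05), which is 19.9% and 11.0%. Among all 51775 peaks 12.1% fell and 13.8% rose. Thus the share of rising member peaks was a little under that of all peaks and the share of falling ones was above it. The median log2 fold change, Rroid-deficient minus wildtype, was -0.08 over the member peaks and -0.01 over all peaks. By gene, 10 members had falling peaks only and 1 (Coro1a) had a rising peak only. A further 4 (Lyst, Myh9, Rab11a and Wipf1) had both, and 20 had no called peak. In all, 14 of 35 members had a falling peak and 5 had a rising one. Over all peaks, at any distance, 3468 of 16526 genes had a falling peak and 4345 had a rising one. The split into falling only, rising only and both was not taken over all genes, so it has no background beside it. Peaks of one gene share a locus, so these counts are not of independent sites.

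At start sites, 30 members had a peak (centre within 1 kb). The peaks of Unc13d, Stx11, Vamp8, Ctsd and Myh9 fell, 16.7% against 8.73% of all start-site peaks. Wipf1 alone rose, 3.33% against 10.4% of all start-site peaks. The other 24 did not pass the test. Of the 106 distal peaks (over 1 kb and up to 100 kb), 22 fell, 20.8% against 12.6% of all distal peaks, and 14 rose, 13.2% against 14.7%. The share of rising distal peaks was thus near the background. Leaving out 1 library at a time gave 17 to 29 falling and 10 to 16 rising member peaks, and the falling count was 17 without wildtype library 2 or 3. The share of all peaks that fell was then 7.80% and 8.90%. Without Rroid-deficient libraries 4 and 6, the shallowest pair, 9 member peaks fell and 8 rose, 6.62% and 5.88% against 7.06% and 7.20% of all peaks, so that the falling share no longer lay above the background.

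**Figure D1:**
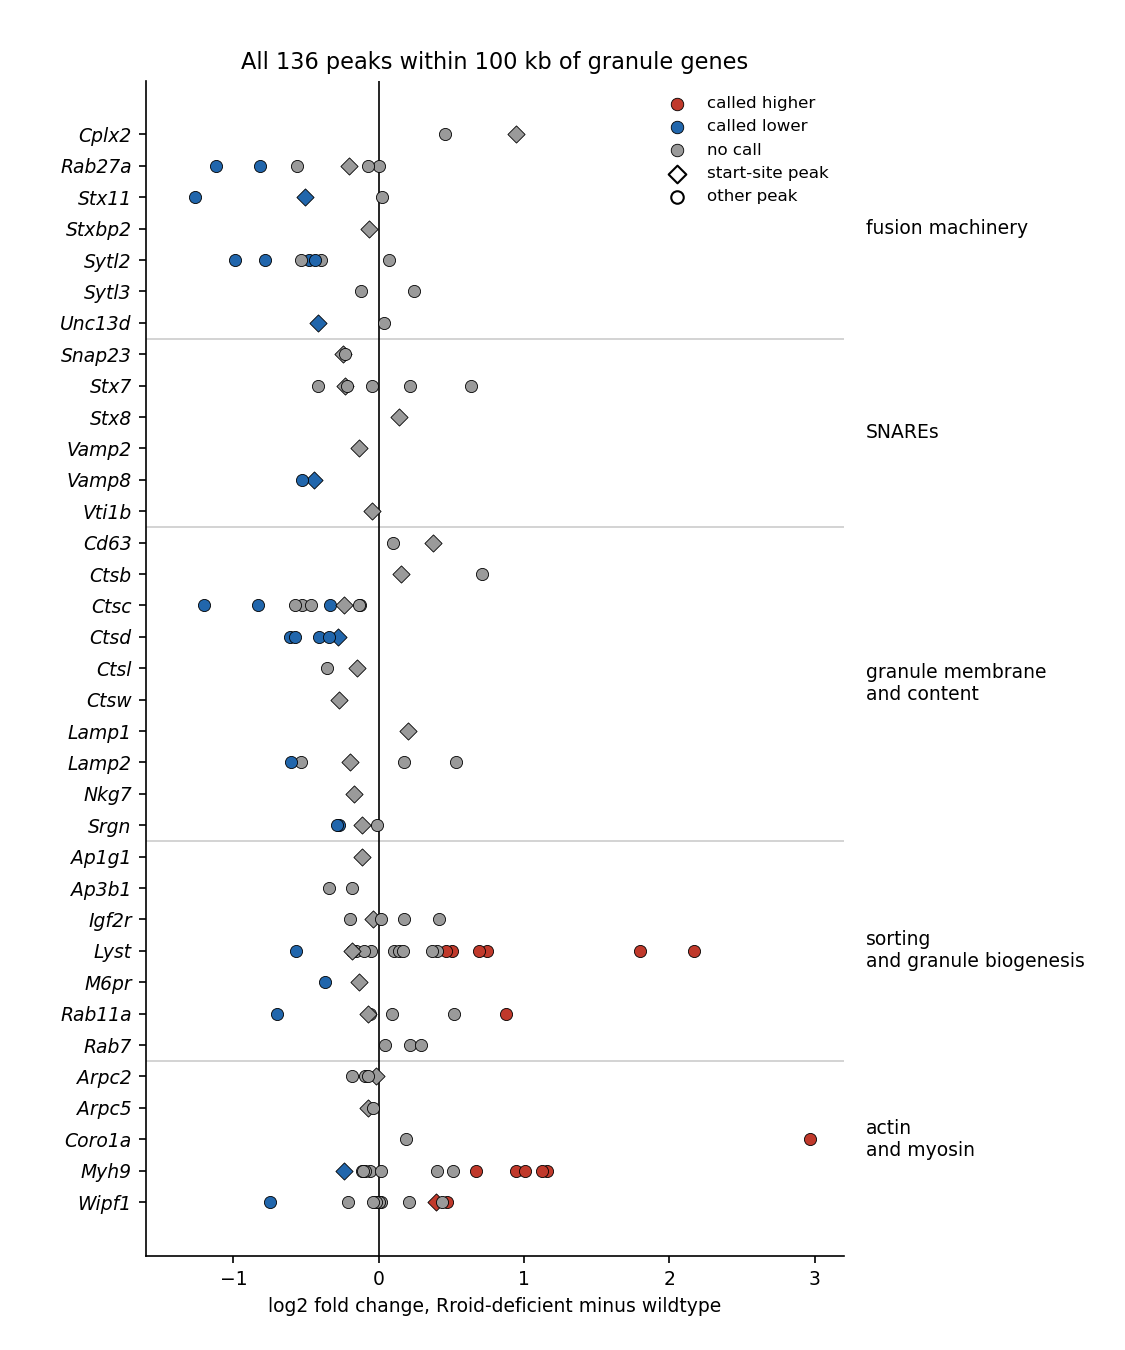
Each symbol is 1 of the 136 peaks, placed by its log2 fold change (Rroid-deficient minus wildtype) on the row of its nearest gene, with genes grouped by role, diamonds for start-site peaks and colour for the limma call at adjusted p under 0.05. Called peaks of the fusion, SNARE and membrane groups all lie to the left of 0, whereas the 15 rising peaks sit at Lyst, Rab11a, Coro1a, Myh9 and Wipf1, with Coro1a farthest right at 2.97.

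When the values of all peaks of a gene within 100 kb were summed, 8 of 35 members fell (22.9%) and 0 rose, against 9.51% lower and 10.8% higher among all 16285 genes (limma, adjusted over all genes). The 8 were Stx11, Sytl2, Ctsd, Vamp8, Unc13d, Rab27a, Ctsc and Lamp2. The summed value of Stx11 was 2917, 3030.4 and 3060.1 normalized reads across wildtype libraries 1, 2 and 3, against 1951, 2250.4 and 2047 across Rroid-deficient libraries 4, 5 and 6, which is 69.4% of wildtype (log2 -0.53, SE 0.08, adjusted p = 0.00044). Sytl2 stood at 74.3%, Vamp8 at 72.7%, Unc13d at 76.4% and Ctsd at 77.3% of wildtype. Rab27a stood at 80.1%, Ctsc at 80.4% and Lamp2 at 82.4%. For each of these 8 genes, picked by the test, every Rroid-deficient library lay below every wildtype library. The groups were also apart at the uncalled sums of Snap23, Arpc5, Cplx2, Nkg7, Srgn, Ap1g1 and M6pr. No share without overlap was taken over all genes. The sums without a call included Lyst at 100% and Myh9 at 95.5%, whose single peaks went both ways. Of the 27 sums without a call, Cplx2 (150%, adjusted p = 0.056) and M6pr (87.2%, adjusted p = 0.054) came closest to the limit. The count at an unadjusted p under 0.05 was 2 higher and 13 lower. No share over all genes was taken at that limit, so this count has no background beside it. Under edgeR and DESeq2 on the recovered reads 1 member sum was called higher, that of Coro1a (adjusted p = 0.0462 and 0.0321).

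The sums of Stx11, Sytl2, Vamp8 and Ctsd passed the test whichever single library was left out. The call for Unc13d was lost without wildtype library 2 (adjusted p = 0.0543), that for Rab27a without Rroid-deficient library 4 (0.0729) and that for Ctsc without wildtype library 3 (0.0914) or Rroid-deficient library 6 (0.0629). The Ctsc sum was also lost when scaled by total reads (0.0639) or by loess (0.126). The Lamp2 sum was lost without wildtype library 1, 2 or 3 or Rroid-deficient library 4 or 6, with adjusted p from 0.0576 to 0.161 (limma), and with DESeq2 size factors (0.0527) or total reads (0.0867). With peaks within 10 kb only, the sums of Rab27a, Ctsc and Lamp2 did not pass (0.131, 0.0701 and 0.174).

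**Figure D2:**
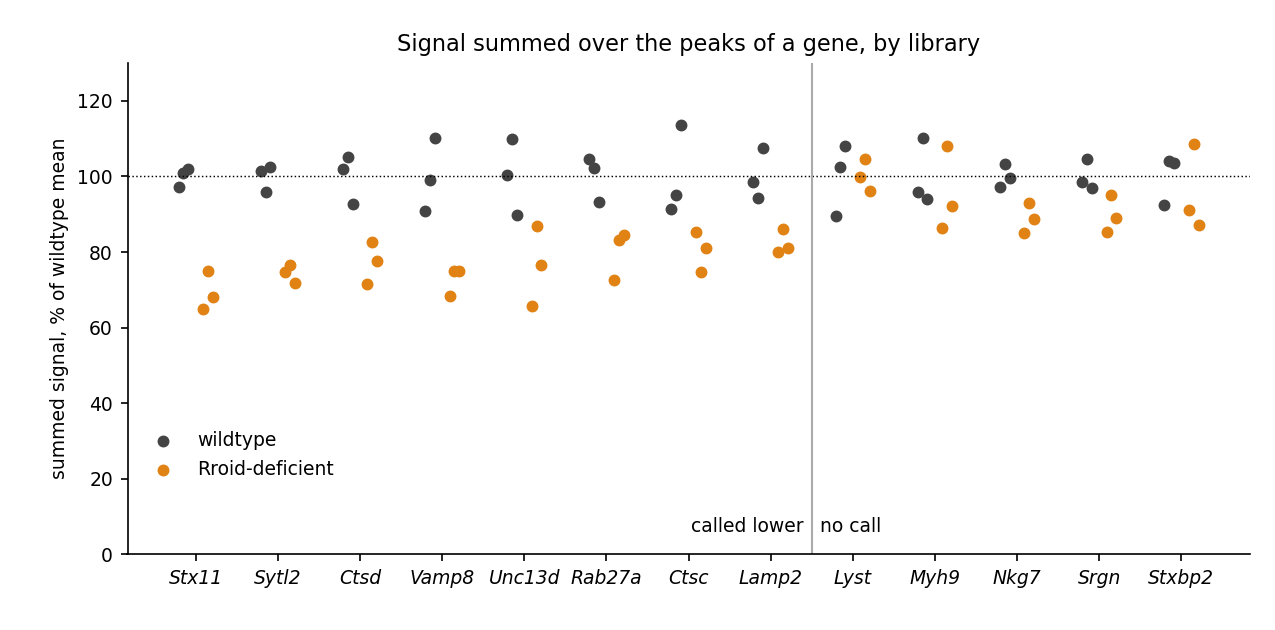
Each point is 1 library's signal summed over the peaks of a gene within 100 kb, as a percent of the mean of the 3 wildtype libraries, for the 8 members called lower (left of the line) and 5 members without a call. The Rroid-deficient points lie below all wildtype points for the 8, from Stx11 at a mean of 69.4% to Lamp2 at 82.4%. They also lie below them for Nkg7 and Srgn, which were not called, and overlap them for Lyst, Myh9 and Stxbp2.

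The fusion machinery (Unc13d, Stx11, Stxbp2, Rab27a, Sytl2, Sytl3 and Cplx2) had 23 peaks, of which 9 fell and 0 rose (39.1% lower, against 12.1% of all peaks), and the median log2 fold change over the 23 was -0.40. The median wildtype mean of the 23 was 291, against 191 over all peaks. The 9 stood at Sytl2 (4), Rab27a (2), Stx11 (2) and Unc13d (1). The NK marker start-site sum given above was also lower in the Rroid-deficient libraries.

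Unc13d encodes the factor that primes docked granules for fusion. Its start-site peak (chr11:115938047-115940131, mm9, centre 186 bp past the start and annotated at the transcription end of a neighbouring gene) held 4695, 5115 and 4252 normalized reads across wildtype libraries 1, 2 and 3, against 3036, 4013 and 3527 across Rroid-deficient libraries 4, 5 and 6. All Rroid-deficient values lay below all wildtype ones. The log2 fold change was -0.42 (SE 0.10, limma adjusted p = 0.00506). A second peak, 6332 bp past the start, was not called, at 231 and 231.

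Stx11, the SNARE that acts with Stxbp2 in granule release, had the lowest log2 fold change of the member peaks. The peak in its first intron, 14639 bp past the start (chr10:12669002-12669850), held 139, 156 and 165 in wildtype and 59.7, 65.7 and 64.1 in Rroid-deficient libraries. The groups were far apart. This is 41.2% of wildtype (log2 -1.26, SE 0.20, limma adjusted p = 0.000191). Its start-site peak (chr10:12682876-12685010, first exon, untranslated part) held 2722, 2839 and 2854 in wildtype and 1842, 2151 and 1931 in Rroid-deficient libraries, again without overlap, at 70.4% (log2 -0.51, adjusted p = 0.000346). The third Stx11 peak, 20964 bp upstream, was low in both genotypes (44.1 and 44.8).

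Stxbp2 (Munc18-2), which holds Stx11 in place, had 1 peak, at its start (chr8:3630678-3632028). It held 1074, 1209 and 1204 in wildtype and 1059.6, 1262 and 1014 in Rroid-deficient libraries, and the groups overlapped. The log2 fold change was -0.07 (SE 0.11, limma adjusted p = 0.682), and it was 0.12 without the 2 shallowest libraries. The Stx11 start site thus passed the test and that of its partner did not, and whether the sites differed was not tested.

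Rab27a encodes the small GTPase that tethers granules to the plasma membrane. Its start-site peak (chr9:72891806-72893417) held 2212, 2248 and 2145 in wildtype and 1688, 2043 and 2020.3 in Rroid-deficient libraries. The groups did not overlap, but the difference did not pass the test (log2 -0.20, limma adjusted p = 0.117). Within its first intron, the peak 10691 bp past the start (chr9:72902893-72903834) held 454, 507 and 441 in wildtype and 204, 208 and 229.7 in Rroid-deficient libraries, 45.8% of wildtype (log2 -1.12, SE 0.14, adjusted p = 1.24e-05). Of the 136 member peaks this had the smallest adjusted p among those that fell. A second intronic peak at 26374 bp (chr9:72918648-72919445) held 307, 287 and 259.8 in wildtype, against 169.7, 182 and 135, and fell to 57% (log2 -0.81, adjusted p = 0.00139). Between and beside these, the intronic peaks at 15894 and 28339 bp were not called (303 and 303, 291 and 274), and neither was that at 23663 bp, which stood at 64.6% of wildtype (172 and 111, adjusted p = 0.104) with overlap between the groups. Not all peaks of this intron passed the test.

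Sytl2 encodes Slp2, an effector that links Rab27a to the plasma membrane. Of its 7 peaks 4 fell, and distances are given to the nearest of several annotated starts. The intronic peak 2566 bp before a start (chr7:97532248-97533602) held 520.0, 441 and 460.1 in wildtype and 207, 272 and 239 in Rroid-deficient libraries. All Rroid-deficient values were well below all wildtype values, a fall to 50.6% (log2 -0.99, SE 0.14, limma adjusted p = 7.41e-05). The highest Sytl2 peak, 6075 bp past a start (chr7:97501997-97504572), held 2871, 2678 and 2827 in wildtype, against 2024, 2148 and 2015 and fell to 73.9% (log2 -0.44, adjusted p = 0.000824). The peaks 36071 bp and 10586 bp before a start fell to 71.5% and 59.8%. An intergenic peak 3610 bp before a start, between the called peaks at -36071 and 6075 bp, was not called (489.7 and 516).

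Sytl3, a related effector, and Cplx2, a complexin that binds SNARE complexes, had 2 peaks each and no call. The higher Sytl3 peak, annotated in an intron of another gene, was 549 ± 65.2 (SD, n = 3) in wildtype and 505 ± 71.2 in Rroid-deficient libraries. The Cplx2 start-site peak was low, at 32.9, 26 and 17.6 in wildtype and 54.4, 30.5 and 68.9 in Rroid-deficient libraries, with overlap (log2 0.95, limma adjusted p = 0.072). The higher Cplx2 peak, 74140 bp upstream, was 93.7 in wildtype and 128 in Rroid-deficient libraries (adjusted p = 0.167).

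The calls at Stx11 14639 bp, Rab27a 10691 bp and Sytl2 -2566 bp held under every alternative fit that included them at the same adjusted p limit. Those at Unc13d, Stx11 122 bp, Rab27a 26374 bp and Sytl2 6075 bp were lost only when Rroid-deficient libraries 4 and 6 were both left out, with adjusted p = 0.3, 0.0596, 0.0643 and 0.0649 (limma, with library 5 assumed to vary like the wildtype ones). The Sytl2 peak at -36071 bp was lost without wildtype library 3 (0.0882) or Rroid-deficient library 6 (0.0733) or without libraries 4 and 6 together (0.058), and that at -10586 bp without wildtype library 1, 2 or 3 or Rroid-deficient library 5 (0.0591 to 0.161), with total reads (0.0849) and under edgeR and DESeq2 on the recovered reads (0.05 and 0.0505).

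**Figure D3:**
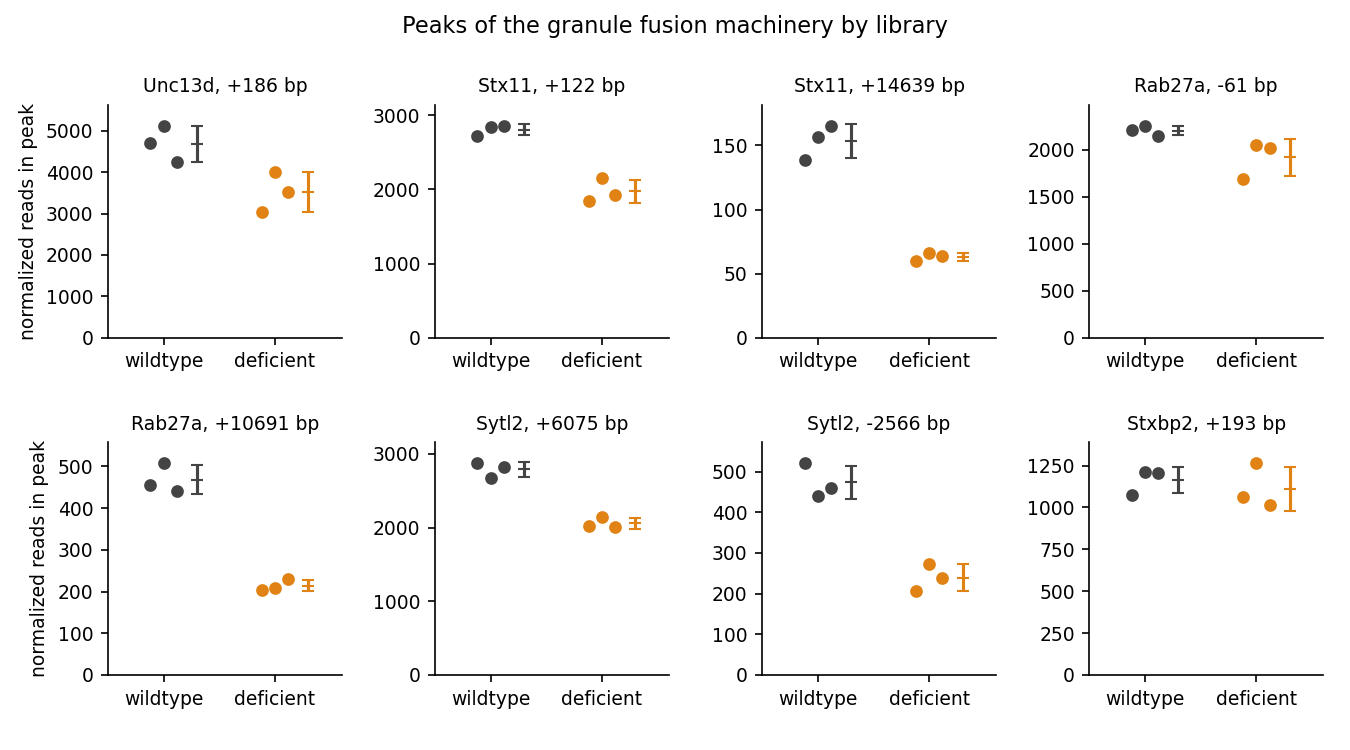
Normalized reads in 8 peaks of the fusion machinery, 1 point per library, with mean ± SD (n = 3) beside each group. Titles give the distance from the start site. The groups separate at Unc13d, Stx11, Rab27a and Sytl2, with the lowest share of wildtype at Stx11 +14639 (153 ± 13.3 against 63.1 ± 3.11), and overlap at Stxbp2.

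The SNAREs other than Stx11 (Vamp2, Vamp8, Stx7, Stx8, Snap23 and Vti1b) had 14 peaks, of which 2 fell and 0 rose, both at Vamp8. This is 14.3%, near the 12.1% of all peaks. Vamp8 is a granule and endosome SNARE used in regulated secretion. Its start-site peak in the first intron (chr6:72339222-72341320) held 716, 772 and 869 in wildtype and 525, 597 and 609 in Rroid-deficient libraries. The Rroid-deficient values were all below the wildtype ones, a fall to 73.4% (log2 -0.44, SE 0.12, limma adjusted p = 0.00964, 0.152 without libraries 4 and 6). The peak 11350 bp upstream fell from 172 ± 15.3 (SD, n = 3) to 119 ± 11.2 (adjusted p = 0.039). That call was lost without wildtype library 2 (0.122) or 3 (0.121) or Rroid-deficient library 5 (0.059) or 6 (0.148) and with total reads (0.077).

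None of the other 5 SNARE genes had a called peak. Snap23, the plasma membrane partner, had a start-site peak of 1002 in wildtype against 847 in Rroid-deficient cells (log2 -0.25, limma adjusted p = 0.106). Stx7, Stx8 and Vti1b work together in late endosome fusion. The start-site peak of Stx7 was 1654 and 1402 in the same order, that of Stx8 463 and 513, and that of Vti1b 2856 and 2776. Vamp2, best known from synaptic release and also used by lytic granules, stood at 1742 and 1594. Their log2 fold changes ran from -0.23 to 0.14, none past the test.

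Genes of the granule membrane and content (Lamp1, Lamp2, Cd63, Nkg7, Srgn, Ctsb, Ctsc, Ctsd, Ctsl and Ctsw) had 32 peaks, of which 11 fell and 0 rose, 34.4% against 12.1% of all peaks. The median wildtype mean of the 32 was 574, against 191 over all peaks. Of all peaks at or above the median level, 17.5% fell. The 11 stood at Ctsd (5 of 5 peaks), Ctsc (3 of 9), Srgn (2 of 4) and Lamp2 (1 of 5). The median log2 fold change was -0.28. As at the fusion genes, the lower NK marker sum goes along with this, and its part was not tested.

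Ctsd encodes cathepsin D, an aspartic protease of lysosomes. The peak 6103 bp upstream (chr7:149578944-149580812) held 735, 797 and 604 in wildtype and 431, 485 and 472 in Rroid-deficient libraries. The groups were separate, and the value was 65% of wildtype (log2 -0.61, SE 0.13, limma adjusted p = 0.00163). The highest peak, chr7:149564705-149567654 inside the gene, held 3471, 3604 and 3392 in wildtype, against 2427, 2756 and 2696 (log2 -0.41, adjusted p = 0.00133). The start-site peak, 844 bp past the start in the first intron (chr7:149571505-149574358), held 2787, 2779 and 2458 in wildtype, against 2082, 2427 and 2102, a smaller fall to 82.4% (adjusted p = 0.0316). The peaks 10141 and 20430 bp upstream stood at 78.9% and 67.1% of wildtype. Without libraries 4 and 6 together the log2 fold change at 10141 bp was -0.22 (-0.34 with all libraries). At the start site it was -0.14 (-0.28 with all libraries). The call at the start site was lost without wildtype library 1 (0.0878) or 2 (0.112) or Rroid-deficient library 4 (0.112) or 6 (0.148), that at 10141 bp without wildtype library 2 (0.0659) or Rroid-deficient library 4 (0.0746), and that at 20430 bp without wildtype library 2 (0.0842). Those at 6103 and 7596 bp were lost only without libraries 4 and 6 together (0.0529 and 0.0868).

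Ctsc encodes cathepsin C, the dipeptidyl peptidase that removes the propeptide of granzymes. The 3 falling peaks were upstream and intergenic. The one at 52293 bp (chr7:95373705-95374916) held 122, 138 and 182 in wildtype and 72.9, 38.1 and 87 in Rroid-deficient libraries. Library 5 was lowest and all 3 lay under every wildtype value, 44.9% of wildtype on average (log2 -1.21, SE 0.28, limma adjusted p = 0.00377). The high peak 71378 bp upstream fell from 3624 ± 349 to 2869 ± 185 (SD, n = 3, adjusted p = 0.0101), and that at 62492 bp fell from 137 ± 34.4 to 76.8 ± 18.2 (adjusted p = 0.018). The start-site peak was 3713 in wildtype against 3135 in Rroid-deficient cells, without overlap but above the limit (adjusted p = 0.0576). Without wildtype library 3, the highest at each of these peaks, the calls at 71378 and 62492 bp were lost (0.0555 and 0.105). The latter was also lost without wildtype library 2 (0.0538) or Rroid-deficient library 5 (0.0609).

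Lamp2, a membrane protein of lysosomes, had 1 falling peak among 5, 17367 bp upstream (chrX:35826453-35827546). It held 381, 414 and 513 in wildtype and 284, 304 and 266 in Rroid-deficient libraries, every Rroid-deficient value below every wildtype one, at 65.2% (log2 -0.61, SE 0.14, limma adjusted p = 0.00461, 0.115 without libraries 4 and 6). The Lamp2 start-site peak was 1066.5 in wildtype and 930 in Rroid-deficient libraries, without overlap and without a call (limma adjusted p = 0.154). Lamp1, the surface marker of degranulation, had a single peak at its start (chr8:13158638-13159980). It held 1109, 1669 and 1070.5 in wildtype and 1318, 1595 and 1439.9 in Rroid-deficient libraries. Wildtype library 2 was above all others and the groups overlapped (log2 0.20, adjusted p = 0.303). Without that library the peak passed as higher (log2 0.41, adjusted p = 0.019).

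Srgn encodes serglycin, the proteoglycan that packs granzymes and perforin. Its start-site peak (chr10:61968158-61971106) held 4214, 4426 and 3985 in wildtype and 3665, 4170.4 and 3826 in Rroid-deficient libraries, with overlap and no call (log2 -0.12, limma adjusted p = 0.318). The intronic peak at 4049 bp fell to 82.6% and the peak 25258 bp upstream to 81.9% of wildtype (adjusted p = 0.0302 and 0.0444). Both calls were lost without wildtype library 2 (0.112 and 0.158) or 3 (0.0677 and 0.0816) and without Rroid-deficient library 4 (0.0988 and 0.121) or 6 (0.0885 and 0.141). The second was also lost under DESeq2 size factors, total reads, loess scaling and limma-voom (0.0509 to 0.0745). Without libraries 4 and 6 together the log2 fold changes of these 2 peaks were -0.26 and -0.23, against -0.28 and -0.29 with all libraries.

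Nkg7, a granule membrane protein needed for efficient degranulation, had the highest of the member peaks, spanning its start (chr7:50689994-50694572). It held 10822, 11515 and 11110 in wildtype and 9468, 10360 and 9898 in Rroid-deficient libraries. The groups did not overlap, but the difference was not called (log2 -0.17, SE 0.07, limma adjusted p = 0.0757). Without Rroid-deficient library 5 it passed (adjusted p = 0.0391). Ctsw, cathepsin W of cytotoxic lymphocytes, had 1 peak (chr19:5466894-5468824) with 1468, 1781 and 1367 in wildtype and 1062, 1457 and 1302 in Rroid-deficient libraries. The groups overlapped (log2 -0.28, adjusted p = 0.109), and it too passed without library 5 (0.0277). The tetraspanin Cd63 and the cathepsins Ctsb and Ctsl had no called peak, with start-site values of 201, 757 and 2127 in wildtype against 259, 837 and 1912 in Rroid-deficient cells.

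Genes of sorting and granule biogenesis (Lyst, Ap3b1, Ap1g1, M6pr, Igf2r, Rab7 and Rab11a) had 36 peaks, of which 7 rose and 3 fell, 19.4% and 8.33% against 13.8% and 12.1% of all peaks. None of the 5 start-site peaks was called. Lyst alone held 6 of the 7 rising peaks and Rab11a the other. In the same libraries the start-site peaks of Cd3g (58.7 ± 5.84 to 353 ± 33.5, SD, n = 3), Cd5 (with overlap between the groups) and Flt3 rose. Those of Cd28 and Zbtb46 were not called. The sort took cells without CD3 and CD5, and the part of other cells in these results was not tested.

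Lyst, the regulator of lysosome size that is mutated in the beige mouse, had 17 peaks, 13 of them upstream of the start. Of these 13, 6 rose and 1 fell, and no share over all upstream peaks was taken. The peaks 15646, 19410 and 22667 bp past the start stood at 133%, 128% and 114% of wildtype and were not called. The peak 8240 bp upstream (chr13:13674108-13674765) held 19.6, 19.3 and 33.2 in wildtype and 102, 108 and 115 in Rroid-deficient libraries. Wildtype values were low, and all Rroid-deficient libraries were higher, 4.5 times the wildtype mean (log2 2.17, SE 0.29, limma adjusted p = 3.37e-05). The peak 21884 bp upstream (chr13:13660572-13661012) held 48.1, 43.7 and 44.9 in wildtype, against 182, 133 and 172, 3.56 times wildtype (log2 1.80, SE 0.22, adjusted p = 1.45e-05). At 31268 bp upstream (chr13:13650947-13651870) the values were 258, 268 and 266 in wildtype, against 419, 496 and 419.5 (log2 0.75, adjusted p = 0.000507). The groups did not overlap at any of these.

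Further Lyst peaks rose less. The peak 18107 bp upstream rose from 508 ± 66.7 to 696 ± 27 (SD, n = 3, limma adjusted p = 0.00981), and those at 66230 and 5843 bp upstream stood at 142% and 162% of wildtype. The outermost peak, 73423 bp upstream (chr13:13608830-13609677), fell. It held 322, 401 and 421 in wildtype and 236, 277 and 253 in Rroid-deficient libraries, without overlap (log2 -0.57, adjusted p = 0.0081). The start-site peak (chr13:13682137-13683484) held 2898, 3177 and 3513 in wildtype, against 2807, 2970 and 2657, with overlap (log2 -0.18, adjusted p = 0.145). High upstream peaks among the risers were not called, with 1508 and 1451 at 60974 bp and 1166 and 1084 at 25418 bp. The 3 strongest rises held in every alternative fit, whereas the calls at 18107 and 73423 bp were lost without libraries 4 and 6 together (adjusted p = 0.0702 and 0.182). The call at 66230 bp was lost when any library but wildtype 3 was left out (0.0536 to 0.131), and that at 5843 bp without wildtype library 2 (0.124) or 3 (0.0543) or Rroid-deficient library 6 (0.141), without libraries 4 and 6 together (0.229) and with loess scaling (0.0515).

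**Figure D4:**
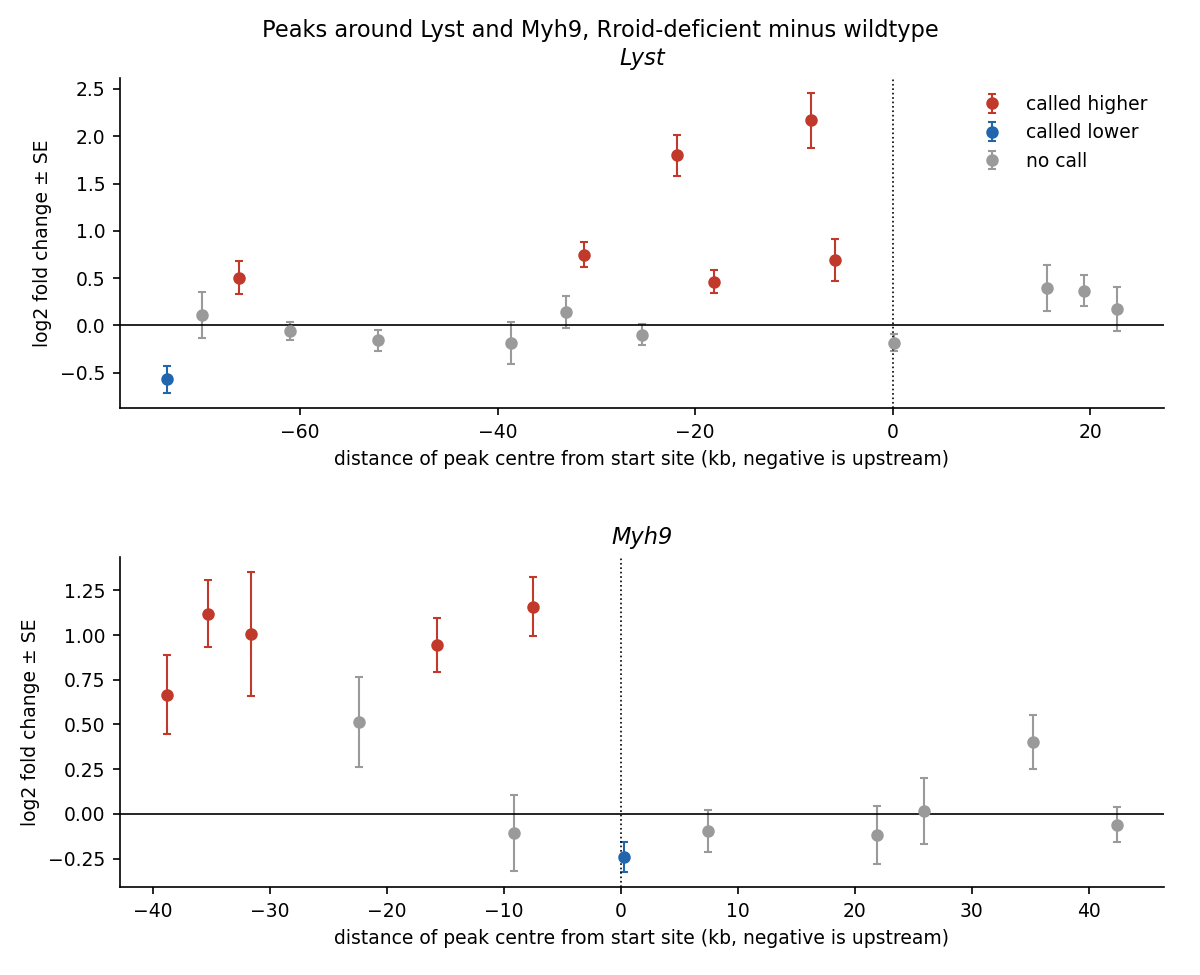
Log2 fold change ± SE (Rroid-deficient minus wildtype, limma) of each peak against the distance of its centre from the start site in kb, for Lyst (top) and Myh9 (bottom), coloured by call. Peaks called higher lie upstream of both starts, among peaks near 0, up to 2.17 at Lyst and 1.16 at Myh9. Uncalled peaks more than 1 kb past the start also lie above 0 at Lyst (0.17 to 0.40) and go both ways at Myh9. The start-site peaks lie below 0 (-0.18 and -0.24).

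Rab11a, a recycling endosome GTPase, had 6 peaks with 1 rise and 1 fall. In its first intron, 3356 bp past the start (chr9:64581907-64582508), the values were 175, 174 and 111 in wildtype and 281, 322 and 233 in Rroid-deficient libraries. All Rroid-deficient libraries were above all wildtype ones, 1.82 times the mean (log2 0.87, SE 0.19, limma adjusted p = 0.00295). The peak at 65808 bp, annotated in an intron of another gene, held 179, 174 and 179 in wildtype and 79.6, 141 and 115 in Rroid-deficient libraries and fell to 63.1% (adjusted p = 0.0199). That call was lost without wildtype library 2 (0.0522) or 3 (0.0545) or Rroid-deficient library 4 (0.105), whereas the rise held in every alternative fit. The log2 fold change at 65808 bp was -0.70 with all libraries and -0.33 without libraries 4 and 6 together. The start-site peak was not called (3042 and 2876).

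M6pr and Igf2r encode the mannose 6-phosphate receptors that carry hydrolases and granzymes to the granule. The M6pr peak 5621 bp upstream (chr6:122252034-122254780) held 2262, 2034 and 2318 in wildtype and 1682, 1734 and 1699.9 in Rroid-deficient libraries, which were all lower. It fell to 77.3% (log2 -0.37, limma adjusted p = 0.00498, 0.116 without libraries 4 and 6). The M6pr start-site peak was 5809 and 5286 (adjusted p = 0.199), and none of the 5 Igf2r peaks was called. The highest Igf2r peak, at its start, was 1575 and 1539 (limma adjusted p = 0.815). Ap3b1, a subunit of the AP-3 adaptor, had 2 peaks and none at its start. The higher, in an intron, held 142, 136 and 134 in wildtype and 142, 102 and 121 in Rroid-deficient libraries, with overlap. Ap1g1, of the AP-1 adaptor, had a start-site peak of 3719.8 and 3439. Rab7, which governs late endosomes, had its highest peak at 2482 and 2555, and neither gene had a call.

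Actin and myosin genes (Coro1a, Wipf1, Arpc2, Arpc5 and Myh9) had 31 peaks, of which 8 rose and 2 fell, 25.8% and 6.45% against 13.8% and 12.1% of all peaks. The median log2 fold change was 0.00. The rises stood at Myh9 (5), Wipf1 (2) and Coro1a (1), and the 2 Arp2/3 subunits had no call. As at Lyst, the rises at Cd3g, Cd5 and Flt3, with no call at Cd28 and Zbtb46, stand beside these, and their part was not tested.

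Coro1a encodes coronin 1A, which remodels cortical actin at the NK cell synapse. The peak 7336 bp upstream (chr7:133855283-133855926) held 15.1, 15.1 and 16.6 in wildtype and 133, 115 and 140.2 in Rroid-deficient libraries, from 17 to 18 reads per wildtype library to 100 to 121 reads per Rroid-deficient one. It was low in wildtype and rose 8.28-fold (log2 2.97, SE 0.28, limma adjusted p = 8.55e-07), the 37th highest log2 fold change of all 51775 peaks. The other Coro1a peak was 4706 bp wide and reached over the start, but counted as distal because its centre lay 1982 bp past it. This peak held 3475, 3740.3 and 3112 in wildtype, against 3582, 4475 and 3747. There the groups overlapped (log2 0.19, adjusted p = 0.157).

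Myh9 encodes the heavy chain of non-muscle myosin IIA, which moves granules through the cortical actin. Of its 7 upstream peaks 5 rose, and none of the 5 intronic peaks beyond the start-site peak was called. Of those 5, 2 had a log2 fold change above 0 and 3 below. The highest, at 35254 bp, stood at 131% of wildtype (limma adjusted p = 0.0568). The peak 7530 bp upstream (chr15:77679777-77680493) held 154, 172 and 139.7 in wildtype and 341, 413 and 295 in Rroid-deficient libraries, 2.25 times wildtype (log2 1.16, SE 0.16, limma adjusted p = 6.1e-05). That at 35274 bp (chr15:77707559-77708200) held 81.9, 82.3 and 75.2 in wildtype, against 164, 195 and 166 (log2 1.12, adjusted p = 0.000321). At 15714 bp (chr15:77687919-77688720) the values were 183, 198 and 160.2 in wildtype, against 332, 371 and 339 (log2 0.94, adjusted p = 0.000166). At all 3 sites every Rroid-deficient library was above every wildtype one, and the calls held in every alternative fit.

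The Myh9 peaks 31649 and 38761 bp upstream held fewer reads and rose, with wildtype means of 26 and 71.7 and Rroid-deficient means of 53.8 and 114. Both calls were lost without wildtype library 2 (limma adjusted p = 0.113 and 0.0674) or 3 (0.135 and 0.129) or Rroid-deficient library 6 (0.209 and 0.137), the first also without library 4 (0.0856) and the second without library 5 (0.063). With loess scaling neither passed (0.0584 and 0.0615). Their log2 fold changes were 1.01 and 0.67 with all libraries and 0.53 and 0.70 without libraries 4 and 6 together. The start-site peak went the other way. It held 6229, 7206 and 6572 in wildtype and 5199.7, 6319 and 5444 in Rroid-deficient libraries, and the groups overlapped. Its fall to 84.8% was just within the limit (adjusted p = 0.0471) and was lost without wildtype library 2 (0.19) or 3 (0.0811), without Rroid-deficient library 4 (0.188) or 6 (0.189) and under edgeR, DESeq2, DESeq2 size factors and loess scaling (0.0535 to 0.0923). The log2 fold change at the start site was -0.24 with all libraries and -0.08 without libraries 4 and 6 together.

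Wipf1 encodes WIP, the partner of the Wiskott-Aldrich protein. Its start-site peak (chr2:73366851-73367961) held 221, 217 and 204 in wildtype and 285, 288 and 272 in Rroid-deficient libraries. The groups were apart, but the call sat at the limit (log2 0.40, limma adjusted p = 0.0497) and was lost whichever library was left out (0.0537 to 0.119) and under edgeR, DESeq2 size factors or a pseudocount of 5 (0.0501 to 0.0514). In its first intron the peak at 33358 bp rose from 288 ± 10.3 to 400.4 ± 31.5 (SD, n = 3, adjusted p = 0.0141, 0.0521 without Rroid-deficient library 5), and the peak at 37247 bp, which held 91.7, 114 and 143 in wildtype, against 66.3, 59 and 78.6, fell to 58.5% (adjusted p = 0.0244). The fall was lost without wildtype library 2 (0.0733) or 3 (0.13) or Rroid-deficient library 4 (0.0522) or 5 (0.0572). Arpc2 and Arpc5, subunits of the Arp2/3 complex that branches actin, had start-site peaks of 2944 and 5175 in wildtype against 2903 and 4908 in Rroid-deficient cells.

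Rising member peaks were lower in level than falling ones, as was so over all peaks. The median wildtype mean was 136 normalized reads at the 15 rising and 474 at the 27 falling member peaks, against 123 and 513 at all rising and all falling peaks. Among the 81 member peaks at or above the median mean of all peaks, 20 fell and 7 rose (24.7% and 8.64%, against 17.5% and 12.8% of all peaks of that kind). Among the 55 below it, 7 fell and 8 rose (12.7% and 14.5%, against 6.68% and 14.7%). Low peaks in general deviated upward in the shallow libraries: over the lowest decile of all peaks the median log2 deviation was 0.31 in library 4 and 0.20 in library 6, and -0.13 in the deeper library 5. Over the 15 rising member peaks, which were picked for being higher, it was 0.41, 0.53 and 0.44 in libraries 4, 5 and 6. Library 5 lay above every wildtype library at all 15, but the same choice favours this, and no share over all rising peaks was taken. The part of depth in the member peaks' calls was not tested.

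**Figure D5:**
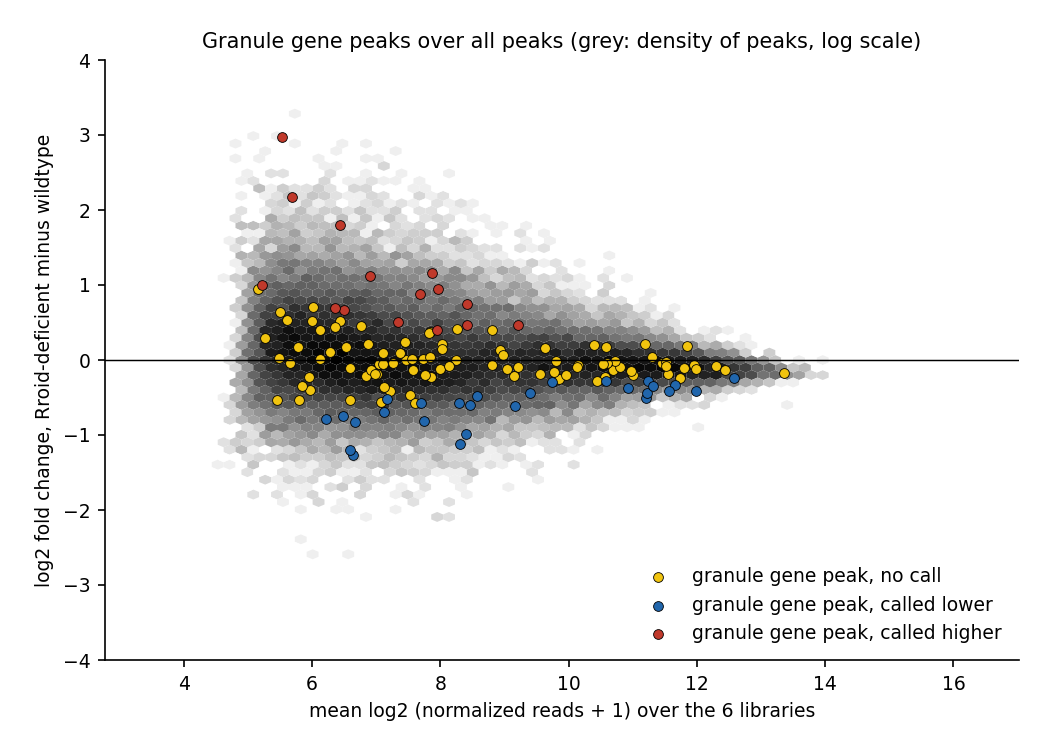
Log2 fold change (Rroid-deficient minus wildtype) against the mean log2 (normalized reads + 1) over the 6 libraries, with all 51775 peaks as grey density on a log scale and the 136 granule gene peaks coloured by call. The 15 rising peaks sit mostly in the low part of the level axis, and the 27 falling ones extend to the highest levels.

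Other genes of the pathway were read from a list of 78 further SNAREs, tethers, Rab GTPases, adaptor and HOPS subunits, lysosomal enzymes and actin regulators. Of these, 76 had 266 peaks, of which 34 fell and 23 rose, 12.8% and 8.65% against 12.1% and 13.8% of all peaks, so the falling share was near the background. The smallest adjusted p were at rising peaks. Ap1m1, an AP-1 subunit, had a peak 39205 bp past its start (chr8:74802860-74803612) with 145, 147 and 111 in wildtype and 449.6, 461 and 447 in Rroid-deficient libraries (log2 1.75, limma adjusted p = 4.04e-07). Arl8b, which couples lysosomes and lytic granules to kinesin, had a peak 4440 bp upstream (chr6:108728332-108728895) with 76.6, 47.9 and 56.7 in wildtype, against 325, 271 and 210.4 (log2 2.14, adjusted p = 2.28e-06). At both of these rising sites the genotypes were far apart. Other Ap1m1 peaks, 32437, 28089 and 21154 bp past the start, fell to 67.4%, 71.7% and 70.1% of wildtype (limma adjusted p = 0.0122, 0.0165 and 0.0187).

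A peak 13240 bp upstream of Rab37, a GTPase of secretory granules, fell from 2049 ± 124 to 1070.3 ± 210.3 (SD, n = 3, log2 -0.95, limma adjusted p = 2.33e-05). Another Rab37 peak, 10330 bp upstream, fell to 68.1% of wildtype (adjusted p = 0.0261). A Rab37 peak 3117 bp before a start rose to 203% (adjusted p = 0.00122). Peaks of the SNARE Vamp1 (6758 bp past the start), the AP-1 subunit Ap1b1 (at the start) and the actin-binding Cotl1 (10093 bp past the start) rose to 177%, 199% and 148% of wildtype. By summed signal 7 of the 76 fell and 5 rose, 9.21% and 6.58% against 9.51% and 10.8% of all genes. The 7 were Tfeb, the transcription factor of lysosome biogenesis, at 80.4% of wildtype, Gnptab, which makes the mannose 6-phosphate tag, at 84.4%, Cst7, the inhibitor of granule cathepsins, at 79.5%, Ap3d1 at 81.0%, Vps18 at 82.2%, Capg at 82.5% and Hcls1 at 80.4%. The 5 were Bloc1s2, Ap1b1, Cd2ap, Cotl1 and Stx3, from 116 to 139%.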

How the data were processed

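The authors deposited 1 table of 51775 consensus ATAC-seq peaks in which every library has 1 normalized signal value at every peak. HOMER's annotation, the nearest gene and the distance to its start stand beside them, per the file headers. Tools named per the submitters' processing notes were HOMER, DiffBind, MACS2 2.1.0, BWA, Trimmomatic 0.32, bcl2fastq 2.16.0 and R 3.1.1, and the genome build was mm9. What each did, whether reads were shifted to the cut site and whether duplicates were removed is not given in the sources used here.

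Dividing each deposited signal value by the value of 1 read in its library gave whole reads for 100% of values, to within 0.01 of a read. Since the unit was signal and not counts, limma 3.58.1 (in R 4.3.3) with an intensity trend was fitted to log2(value + 1) over all peaks, and to the summed signal of each gene's peaks within 100 kb over all 16285 genes. The pseudocount makes the fold changes of low peaks too small. Adjustment by Benjamini-Hochberg covered all peaks or all genes, with calls at an adjusted p under 0.05, and no p was adjusted over the list alone. Wildtype columns end in 1, 2 and 3 and Rroid-deficient columns in 4, 5 and 6, which the sample titles do not carry, so they were unpaired replicates. No library was a copy of another, since chi-square divided by its degrees of freedom was 3.45 to 9.60 within genotypes. A filter (10 or more in 3 libraries) removed 0 peaks.

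Alternatives were DESeq2 size factors, total reads, loess scaling, pseudocounts of 0.5 and 5, an adjusted p limit of 0.01, a distance of at most 10 kb, only peaks at or above the median level, each library left out, the 2 shallowest left out, and edgeR 4.0.16, DESeq2 1.42.0 and limma-voom on the recovered reads. On those reads edgeR called 39 and DESeq2 40 of the 136 member peaks, against 42 in limma. Members, gene lists and marker lists were chosen with earlier results of these data known. The text names each member's start-site peak, its called peaks and, where none was called, its highest peak. It also gives a few uncalled peaks beside called ones at Unc13d, Stx11, Rab27a, Sytl2, Lyst and Myh9 and the second Coro1a peak, chosen after their values were seen. Other genes of the pathway are given by counts and the 6 smallest p, with the other called peaks of Ap1m1 and Rab37. Without an mm9 genome no peak sequence was printed.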

Additional observations from a re-analysis of the deposited data

How the results depend on the processing

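The 136 member peaks gave 42 calls, 15 higher and 27 lower. Counts stayed within 1.5 times of these under both pseudocounts, the 3 other scalings, edgeR, DESeq2 and limma-voom. Leaving out 1 library gave 29 to 45 calls, 10 to 16 higher and 17 to 29 lower, with 17 lower without wildtype library 2 or 3. Without the 2 shallowest libraries there were 17 calls, 8 higher and 9 lower, from a fit with 1 Rroid-deficient library. These are 5.88% and 6.62%, against 7.20% and 7.06% of all peaks, so the falling share was then not above the background. An adjusted p limit of 0.01 left 23 (9 and 14), and a distance of at most 10 kb, with 55 peaks, left 17 (6 and 11). Of the 81 peaks at or above the median level 27 were called, 7 of them higher. Of 35 summed genes, 8 fell and 0 rose. A limit of 0.01 left 3 lower, and 10 kb left 5 lower among 33 genes. Called sums without 1 library numbered 6 to 9. The count of higher sums was 1 with total reads, edgeR or DESeq2 and 2 with loess (Coro1a in each, with Wipf1 in loess), and 0 to 1 when 1 library was left out (Cplx2 without wildtype 1, Lamp1 without wildtype 2). The lower sums then numbered 6 to 9. The cause of these shifts was not tested. Of the 42 called peaks 12 passed in every alternative fit that included them, 30 were lost in at least 1 and 0 changed sign. The Stxbp2 start-site value, not called, turned from -0.07 to 0.12 without the 2 shallowest libraries. No paired analysis was possible because the Rroid-deficient columns carry numbers that match no sample title, so the replicate block was not run. Of the 15 rising peaks 8 lay below the median level of all peaks.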

Other observations

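Beyond 100 kb, 5 further peaks had a member as their nearest gene, 3 at Ctsc and 1 each at Ap3b1 and Rab11a. The Ctsc peak 180145 bp upstream, annotated in an intron of another gene, held 448, 467 and 567 normalized reads across wildtype libraries 1, 2 and 3, against 363, 317 and 376 across Rroid-deficient libraries 4, 5 and 6. The groups did not overlap, and the peak was called lower (log2 fold change -0.48, SE 0.13, limma adjusted p = 0.0138). The Ctsc peak 112963 bp upstream was at 40.1 and 20.3 on average and was not called (adjusted p = 0.0719), and the other 3 were not called either.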
